A study of Mus musculus with 42 samples.

Results

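Mouse embryos injected with a morpholino against Oct4 were measured 44 h and 20 h after injection, and the report describes which transcripts changed over this interval and which of those changes differed from the changes of uninjected embryos. The 6 arrays (3 at each time) were taken by their titles from the 42 Affymetrix arrays of the series. All embryos were B6D2F1 preimplantation embryos cultured in human tubal fluid medium with a serum supplement. The Oct4 morpholino group at 20 h belongs to the Oct4 experiment and has uninjected embryos of its own (3 arrays) but no control-injected embryos. At 44 h the Oct4 and Sall4 morpholino groups share 1 set of uninjected embryos and 1 set of embryos injected with a control morpholino that matches no mouse sequence (3 arrays each). Sall4 morpholino embryos at both times (3 arrays each), with uninjected embryos of the Sall4 experiment at 20 h (3 arrays), served as a further comparison, and uninjected embryos of the Nanog experiment at both times (3 arrays each) defined genes that rise or fall without injection. The labels give neither the stage reached by each embryo nor how many embryos were pooled for an array.

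A morpholino is an antisense oligomer that blocks translation or splicing of its target mRNA, so the mRNA itself need not fall; the labels do not state which way these morpholinos act. Oct4, encoded by Pou5f1, is a POU-domain transcription factor that binds an octamer motif in DNA, often together with Sox2. Between the early cleavage divisions and the morula and blastocyst, embryos degrade the mRNAs stored in the oocyte, silence the genes of the first wave of transcription, build ribosomes, mitochondria and proteasomes from their own genome, and set apart trophectoderm from inner cell mass. Oct4 is known as a factor of the inner cell mass that opposes Cdx2, the transcription factor of the trophectoderm.

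Array medians were 26.1 to 33.3 on the 24 arrays of the Oct4 and Sall4 experiments and 193 to 227 on the other 18, those of the Nanog experiment, and no level of one set is compared with a level of the other. The table's median of 71.15, used as the filter, lies above the median of each of the 24, and with a filter on the arrays' own medians 6141 genes passed over time with the morpholino and 989 in the difference described below. Pearson correlations between replicates were 0.935 to 0.949 in Oct4 morpholino embryos at 20 h, 0.897 to 0.907 at 44 h, 0.961 to 0.966 in uninjected embryos at 20 h and 0.928 to 0.950 at 44 h, so the Oct4 morpholino arrays at 44 h varied most among these 4 groups. The 20 h and the 44 h embryos come from separately labelled experiments, and in each change over time the interval and the experiment cannot be told apart. The tissue label was checked against markers. The summed intensity of 5 oocyte transcripts (Zp3, Gdf9, Bmp15, Oosp1 and Nlrp5) was 12830 to 14490 in Oct4 morpholino embryos at 20 h and 2139 to 2653 at 44 h. In uninjected embryos it was 12870 to 13140 and 1516 to 1904. Of 4 cumulus and granulosa cell markers and of 4 blood and stroma markers, all had means under the median of the whole table (71.15) in the 4 groups, with summed levels of at most 124 and 53.1. Of 16 listed genes of cumulus and granulosa cells, 14 stayed under that median in each of the 4 groups, and their sum ran from 678 to 1070 in Oct4 morpholino embryos at 20 h, 383 to 564 in uninjected embryos at 20 h, 274 to 548 in Oct4 morpholino embryos at 44 h and 299.8 to 1134 in uninjected embryos at 44 h. Of 14 listed genes of blood, stroma and fibroblasts, 14 were under it in Oct4 morpholino embryos at 20 h and 12 at 44 h, with sums of 249 to 309.8 and 438 to 887, against 238 to 299 and 440.4 to 1028 in uninjected embryos. Of 5 sperm markers 4 stayed under it; the fifth, the protamine gene Prm1, read 344, 351 and 411 in Oct4 morpholino embryos at 20 h and 206, 186 and 256 at 44 h. The part of other cells in the results was not tested.

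Levels are deposited intensities, and changes are log2 values of intensity + 16 with their standard error, from limma with n = 3 arrays per group. Genes with an adjusted p under 0.05, adjusted over all 15785 genes tested, are said to have passed. Array signals are relative within an array, so fewer cells of a type and less RNA per cell cannot be told apart, nor can a change of total RNA per embryo.

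Pou5f1 mRNA fell in Oct4 morpholino embryos while it rose in uninjected embryos. It read 3448, 2769 and 3662 at 20 h and 2254, 2458 and 1942 at 44 h with the morpholino, without overlap, a change of -0.56 ± 0.19 (adjusted p = 0.0164). In uninjected embryos it read 2666, 2706 and 3036 at 20 h and 4388, 4049 and 4074 at 44 h, a change of 0.57 ± 0.19 (adjusted p = 0.0143). The difference between the changes was -1.14 ± 0.26 (adjusted p = 0.00884). Control-injected embryos at 44 h read 3573, 4440 and 3762, above the Oct4 morpholino arrays as well. For the fall with the morpholino, the call was lost in 5 of 17 alternative settings, among them leaving out, 1 at a time, Oct4 morpholino replicates 1 and 3 at 20 h and Oct4 morpholino replicate 3 at 44 h (adjusted p up to 0.117). For the difference, the call was lost under quantile normalization (adjusted p = 0.076). Sall4, a zinc finger factor that shares targets with Oct4, read 2281, 1382 and 1363 at 20 h and 1627, 1618 and 1511 at 44 h with the morpholino, a change of -0.04 ± 0.19 that did not pass. It was already lower than in uninjected embryos at 20 h, which read 2764, 2537 and 2995, by 0.76 ± 0.19 (adjusted p = 0.0311). A second probe set of Sall4 changed by -0.57 over time with the morpholino. Its difference from the change in uninjected embryos was -1.01, against -0.43 on the one used. The mRNA of Nanog, a homeodomain factor of the inner cell mass, rose from 118, 149.8 and 25.2 to 566, 998 and 1014, a change of 3.12 ± 0.53 (adjusted p = 1.67e-05). In uninjected embryos Nanog rose by 4.13 ± 0.53, and the difference of -1.0 ± 0.75 did not pass (adjusted p = 0.559).

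Over the interval, 6028 genes passed in Oct4 morpholino embryos: 2677 were higher at 44 h (17.0% of the genes tested) and 3351 lower (21.2%). In uninjected embryos of the same experiments 2576 were higher (16.3%) and 3617 lower (22.9%). The shares over all genes tested stand beside the counts of each gene list below. The median change of all genes tested was -0.05 with the morpholino and -0.09 without injection, and its sign depends on the scaling: with arrays centred on their medians it was 0.03 and 0.02. Of the genes that passed with the morpholino, 5562 (92.3%) had arrays that did not overlap between the times. The test itself favours genes with such arrays, and the share over all genes tested was not taken. The 92.3% therefore describes the called genes and is no further support. The test of the difference between the changes passed in 863 genes, 550 positive (3.48%), with a higher value with the morpholino, and 313 negative (1.98%). The 1608 genes that rose in both groups are 60.1% of the genes that rose with the morpholino and 62.4% of those that rose in uninjected embryos. The 2467 genes that fell in both are 73.6% and 68.2%. For 3881 of these the test of the difference did not pass, which does not show that the changes were equal.

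**Figure D1:**
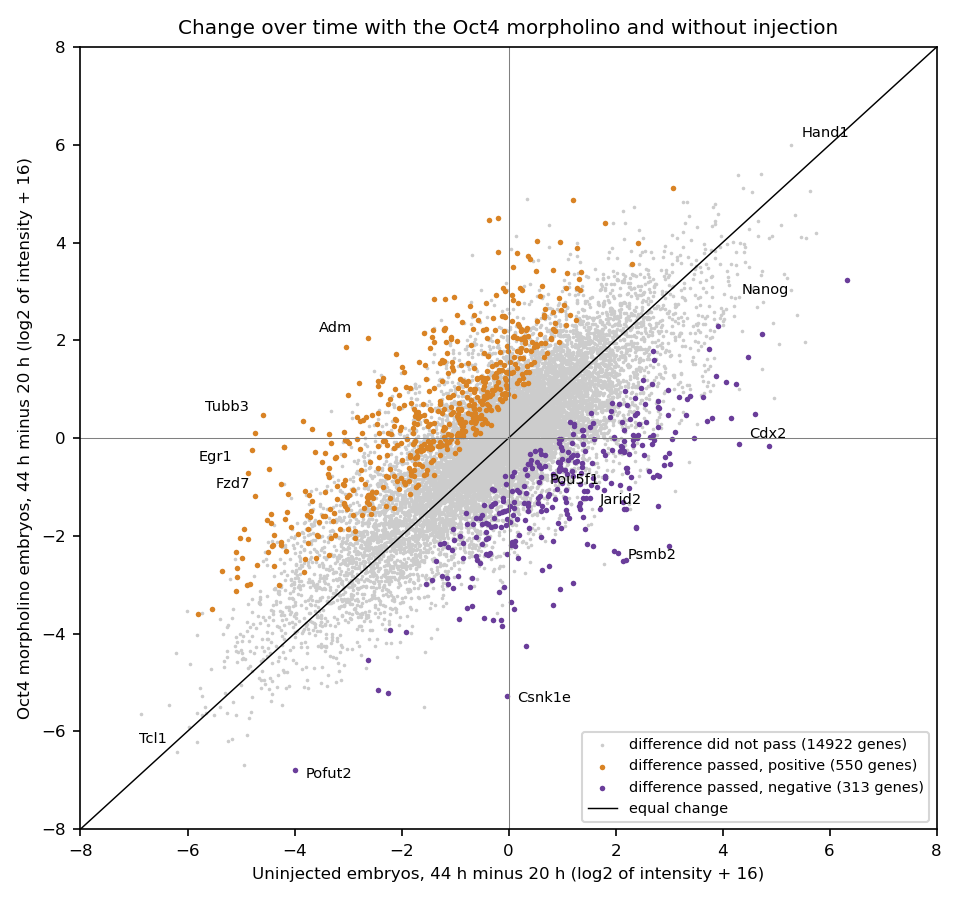
Change between 20 h and 44 h of each tested gene in uninjected embryos (horizontal axis) and in Oct4 morpholino embryos (vertical axis), both as log2 of intensity + 16. Orange and purple points passed the test of the difference (550 above the line of equal change, 313 below it), grey points did not; Hand1 and Tcl1 lie near the line, Tubb3 and Egr1 above it, Csnk1e and Psmb2 below it.

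The largest rise with the Oct4 morpholino was that of Hand1, a transcription factor of the trophoblast. It read 11.5, 10.7 and 26.8 at 20 h and 1897, 2374 and 1764 at 44 h, a change of 6.0 ± 0.45 (adjusted p = 1.15e-11). Uninjected embryos read 87.6, 16.2 and 15.1 at 20 h and 2126, 1290 and 2127 at 44 h, and the difference of 0.72 ± 0.64 did not pass. All 44 h arrays of both groups stood far above all 20 h arrays. A second probe set of Hand1, of lower signal, rose by 3.08 with the morpholino, with a difference of -0.81. Tufm, the elongation factor of mitochondrial protein synthesis, rose by 5.41 ± 0.67, from 11.99, 5.98 and 53.4 to 1783, 1249 and 1411. Slc6a8, the creatine transporter, rose by 5.06 ± 0.42, from 36.6, 10.8 and 10.7 to 684, 1834 and 1054. Of the other genes among the 12 largest rises, Rflnb, whose product binds filamin, rose by 5.39 ± 0.52, Lpar1, a receptor for lysophosphatidic acid, by 5.04 ± 0.68, the nucleotidase gene Nt5c by 5.11 ± 0.46, the scaffold gene Dlg3 by 4.82 ± 0.44 and Rasgrp2, an exchange factor for Rap GTPases, by 4.79 ± 0.61. All 8 of these also passed as higher in uninjected embryos, and none of the 8 passed the test of the difference. The other probe sets of Lpar1, of lower signal, rose by 1.04 and 2.81, with differences of -2.90 and -0.48.

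Among the 12 largest rises, 2 passed the test of the difference from uninjected embryos. Cndp2, a cytosolic dipeptidase, read 42.2, 153 and 91.9 at 20 h against 923, 362 and 277 in uninjected embryos, and 2825, 4621 and 3275 at 44 h against 4275, 4233 and 3348. The Oct4 morpholino arrays were the lower at 20 h and overlapped the uninjected arrays at 44 h, and the difference was 2.04 ± 0.57 (adjusted p = 0.0291). Gtf3c4, a subunit of the RNA polymerase III factor TFIIIC, read 41.7, 11.1 and 18.6 at 20 h against 742, 304 and 341 in uninjected embryos, and 821, 1367 and 1165 at 44 h against 1395, 920.1 and 786, a difference of 3.67 ± 0.60 (adjusted p = 0.00035). Another probe set of Gtf3c4, of similar signal, changed by 0.91 with a difference of 0.29. For both genes, on the probe set used, the groups stood apart at 20 h and not at 44 h. For the difference of Cndp2 the call was lost in 7 of 24 alternative settings, 5 of them leaving out an array (adjusted p up to 0.124). Ccn1, a secreted matrix protein and known target of the Hippo effector Yap, rose by 4.82 ± 0.51 with the morpholino and by 3.34 ± 0.51 without injection, and the difference of 1.48 ± 0.72 did not pass. The membrane protein gene Marveld1 rose by 4.89 ± 1.11. Its 20 h arrays read 263, 250.2 and 2.52, 1 of them far below the others, and its 44 h arrays 4578, 3213 and 2398, above all of them. The difference of Marveld1 from uninjected embryos, 4.54, did not pass. Its other probe sets, of lower signal, gave differences of 2.445, 0.55 and 0.08.

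The largest fall with the Oct4 morpholino was that of Pofut2, an O-fucosyltransferase of the endoplasmic reticulum. It read 2805, 1833 and 3665 at 20 h and 5.86, 11.2 and 7.9 at 44 h, a change of -6.79 ± 0.57 (adjusted p = 7.5e-11). Uninjected embryos read 1439, 1895 and 1346 at 20 h and 64.95, 141 and 59.3 at 44 h, a difference of -2.81 ± 0.80 (adjusted p = 0.0331), for which the call was lost in 9 of 24 alternative settings, 7 of them leaving out an array (adjusted p up to 0.135). The other probe sets of Pofut2 changed by -4.93, -4.48 and -2.32 with the morpholino, with differences of -1.74, -0.92 and -0.41. The other falls among the 12 largest had differences from uninjected embryos that did not pass, from -1.75 (Plekhg1) to 0.08 (Wee2). Tcl1, a coactivator of the Akt kinase that is abundant in oocytes, fell from 6155, 5547 and 6102 to 67.6, 32.4 and 225, a change of -5.91 ± 0.44, against -5.97 ± 0.44 in uninjected embryos. Wee2, the oocyte form of the kinase that restrains Cdk1, fell from 3146, 3000 and 2740 to 24.9, 61.9 and 47.8, a change of -5.66 ± 0.65 against -5.74 ± 0.65. Sytl4, a partner of Rab27 in exocytosis, fell by 6.43 ± 0.54 and Bik, a proapoptotic gene of the Bcl2 family, by 6.22 ± 0.70. Ssh1, a phosphatase that activates cofilin, fell by 6.15 ± 1.07, and the somite transcription factor Mesp2 by 6.07 ± 0.46. Plekhg1 (-6.7), Gm15496 (-6.2), Afap1l2 (-5.73), Pkd2l2 (-5.67) and AA545190 (-5.67) complete the 12. For Pkd2l2, another probe set of lower signal changed by -0.59, with a difference of 0.49. Over the 12 genes, the Oct4 morpholino arrays read from 1023 to 6155 at 20 h and from 1.04 to 225 at 44 h.

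A reference for development without injection came from the uninjected embryos of the Nanog experiment, which share no array with the Oct4 embryos. There 1458 genes rose (9.24% of the genes tested) and 2539 fell (16.1%) from 20 h to 44 h. Of the 1458, 783 (53.7%) also passed as higher in Oct4 morpholino embryos and 1013 (69.5%) in uninjected embryos of the Oct4 experiment, with median changes of 1.2 and 1.67. Of the 2539, 1686 (66.4%) passed as lower with the Oct4 morpholino and 2035 (80.1%) without injection, with medians of -1.66 and -2.10. The test of the difference passed in 96 of the 1458 rising genes as negative (6.58%) and in 12 as positive, and in 244 of the 2539 falling genes as positive (9.61%) and in 24 as negative. On the arrays themselves, the median of the rising genes, as log2 of intensity + 16, was 6.45 to 6.55 in Oct4 morpholino embryos at 20 h and 8.09 to 8.38 at 44 h, while uninjected embryos reached 8.83 to 8.89 and control-injected embryos 8.69 to 8.98 at 44 h. The median of the falling genes was 9.18 to 9.23 at 20 h with the morpholino and 7.21 to 7.31 at 44 h, against 6.39 to 6.67 in uninjected and 6.71 to 6.84 in control-injected embryos at 44 h. The Oct4 morpholino arrays at 44 h did not overlap those of either reference in these medians. Sall4 morpholino embryos at 44 h read 7.97 to 8.56 for the rising genes and 7.01 to 7.24 for the falling genes, which overlaps the Oct4 morpholino values for both sets, and the median changes in Sall4 morpholino embryos were 1.21 and -1.77.

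**Figure D2:**
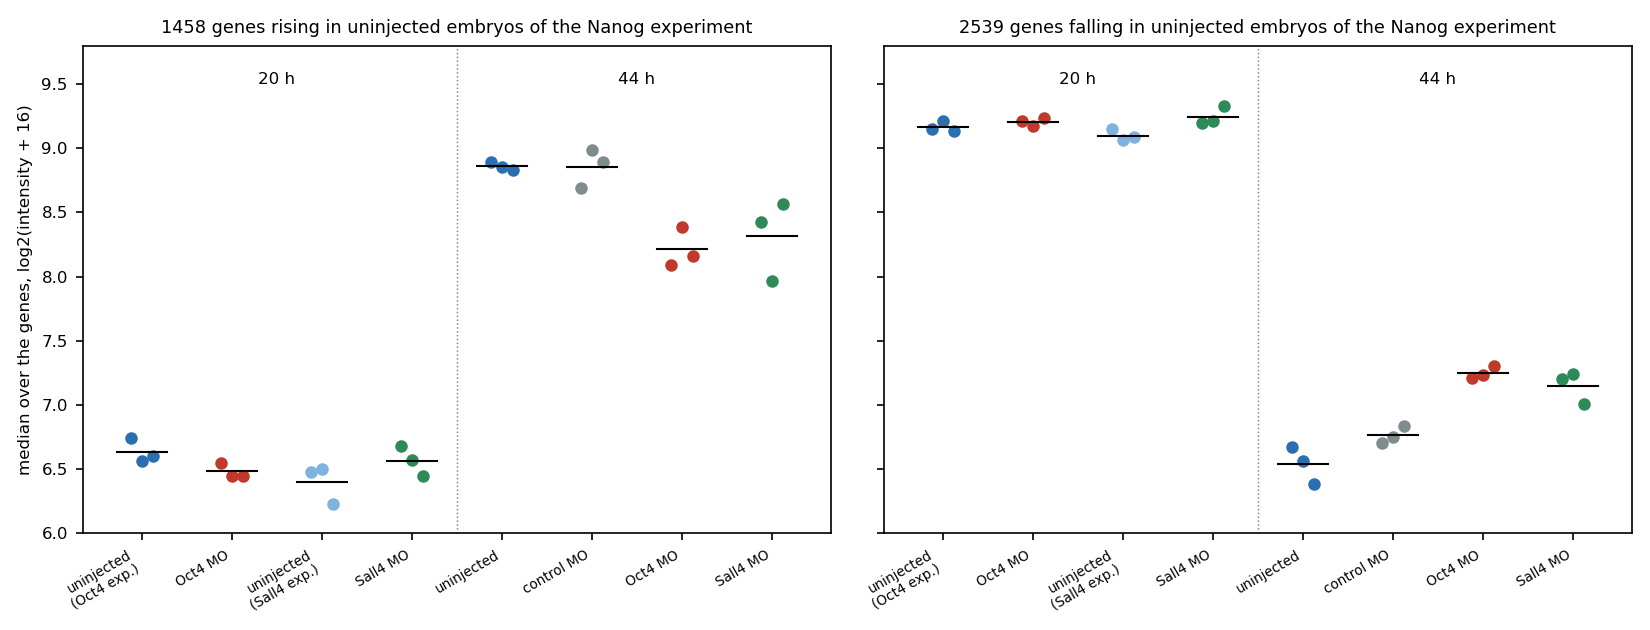
Median level, as log2 of intensity + 16, over 1458 genes that rose (left) and 2539 genes that fell (right) in uninjected embryos of the Nanog experiment, for each of 24 arrays of the Oct4 and Sall4 experiments (points) with the mean of each group (bars). At 44 h the Oct4 morpholino arrays lie at 8.09 to 8.38 and 7.21 to 7.31, between the 20 h arrays and the uninjected and control-injected arrays at 44 h, and overlap the Sall4 morpholino arrays.

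Most stored transcripts of the oocyte fell in Oct4 morpholino embryos. Of 52 tested maternal genes 41 fell and 1 rose, with a median of -2.43, beside 21.2% and 17.0% of all genes tested. In uninjected embryos 44 fell and 1 rose, with a median of -2.88. All 41 that fell with the morpholino also fell in uninjected embryos. Oog3, an oocyte gene of the oogenesin family, read 5553, 5773 and 5493 at 20 h and 559, 361 and 638 at 44 h, a change of -3.43 ± 0.20 against -4.03 ± 0.20 in uninjected embryos, a difference that did not pass. Omt2a, an oocyte maturation transcript, fell by 3.02 ± 0.22, from 7044, 6998 and 7157 to 1118, 678 and 827. In 2 of the 52 the test of the difference passed, both with less of a fall with the morpholino, beside 3.48% positive over all genes. Bmp15, an oocyte growth factor, read 4328, 4529 and 4336 at 20 h and 928, 661 and 898 at 44 h, against 3927, 4357 and 3834 and 324, 449 and 380.2 in uninjected embryos, a difference of 0.95 ± 0.23 (adjusted p = 0.0126). The groups overlapped at 20 h, and all 3 Oct4 morpholino arrays were the higher at 44 h. Its other probe sets gave differences of 1.02 and -0.20. Bcl2l10, an oocyte member of the Bcl2 family, read 245, 618 and 318 at 44 h against 57.1, 151 and 17.7, a difference of 2.21 ± 0.67 (adjusted p = 0.0458). For Bmp15 the call was lost in 4 of 24 alternative settings, 0 of them leaving out an array (adjusted p up to 0.356); for Bcl2l10 the call was lost in 16 of 24 alternative settings, 10 of them leaving out an array (adjusted p up to 0.727).

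The next list holds genes of the transient wave of transcription in the 2-cell embryo. Of 18 tested, 8 fell and 4 rose with a median of -1.0, beside 21.2% and 17.0% of all genes. In uninjected embryos 11 fell and 5 rose, with a median of -1.95. The test of the difference passed in 4, all positive, beside 3.48% of all genes. Tdpoz1, a member of the expanded Tdpoz family, read 2171, 1917 and 2099 at 20 h and 1277, 1024 and 806 at 44 h with the morpholino and 2036, 1911 and 2083 and 506, 355 and 307 in uninjected embryos. All 3 morpholino arrays at 44 h were above all uninjected and all control-injected arrays (472, 397 and 389.7), and the difference was 1.34 ± 0.26 (adjusted p = 0.00168). Spz1, a transcription factor gene known from testis, read 2468, 1883 and 2264 at 20 h and 2206, 1899 and 1566 at 44 h, while uninjected embryos went from 2071, 1675 and 1668 to 461, 197 and 164, a difference of 2.56 ± 0.51 (adjusted p = 0.00247). Rfpl4b, a RING finger gene, fell from 1423, 861 and 967 to 259.9, 67.3 and 197 with the morpholino and from 1283, 1177 and 1185 to 9.73, 30.5 and 24.8 without, a difference of 2.41 ± 0.60 (adjusted p = 0.015). The fourth is Arg2. The homeobox gene Obox3 fell by 3.14 ± 0.44 with the morpholino and by 4.29 ± 0.44 without, and Eif1a rose by 1.38 ± 0.20 and 1.04 ± 0.20, with differences that did not pass. For Tdpoz1 the call was lost with the compared arrays alone (adjusted p = 0.055), and for Rfpl4b the call was lost with pseudocount 64 (adjusted p = 0.0621). The summed level of 3 markers of the 2-cell embryo (Zfp352, Tcstv3 and Usp17la) was 8902 to 12630 at 20 h and 2947 to 5849 at 44 h in Oct4 morpholino embryos, 9537 to 10490 and 980 to 1839 in uninjected embryos, and 613 to 1047 in control-injected embryos at 44 h. Members of these multigene families share sequence, so a probe set may read more than 1 of them.

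Of 45 cytosolic ribosomal protein genes 36 rose and 0 fell, with a median of 1.16, beside 17.0% and 21.2% of all genes tested. In uninjected embryos 40 rose and 0 fell, with a median of 1.22. All 36 rose in both. Rps3, a protein of the small ribosomal subunit, read 2446, 1505 and 1869 at 20 h and 6718, 7240 and 6716 at 44 h, a rise of 1.85 ± 0.15, with 3263, 2273 and 2779 and 8084, 7506 and 7254 in uninjected embryos. Rps15 rose by 1.79 ± 0.17 and Rpl19 by 1.7 ± 0.18, with differences that did not pass. The test of the difference passed in 2 of the 45, both negative, beside 1.98% of all genes. Rpl7a, a protein of the large subunit, read 921, 1604 and 1442 at 44 h with the morpholino and 5254, 4763 and 4720 without, from 967, 722 and 1035 and 1156, 713 and 946 at 20 h, a difference of -1.88 ± 0.35 (adjusted p = 0.00152). Rpl8 rose in both groups, by 1.78 ± 0.18 and 2.71 ± 0.18, a difference of -0.93 ± 0.25 (adjusted p = 0.0255), for which the call was lost in 6 of 24 alternative settings, among them leaving out, 1 at a time, Oct4 morpholino replicate 1 at 20 h, Oct4 morpholino replicate 1 at 44 h and uninjected replicate 2 at 20 h (adjusted p up to 0.121).

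Nucleolar genes of ribosome biogenesis rose in 34 of 52 cases and fell in 1, with a median of 0.92, beside 17.0% and 21.2% of all genes. In uninjected embryos 27 rose and 2 fell, with a median of 0.67. Ddx21, a helicase of ribosomal RNA synthesis, rose from 1037, 519 and 739 to 3268, 3250 and 3008 (2.08 ± 0.20), and Utp14a, a component of the small subunit processome, from 179, 235 and 249.5 to 1295, 1241 and 1145 (2.4 ± 0.26). Utp20 of the same complex rose by 2.35 ± 0.26 and Ebna1bp2 by 1.74 ± 0.21. Ddx10, Nop2 and Polr1e passed the test of the difference, all positive, beside 3.48% of all genes. Ddx10, another helicase of ribosome assembly, read 479.9, 194 and 191 at 20 h and 1037, 1391 and 1037 at 44 h, against 698, 366 and 452 and 647, 607 and 537, a difference of 1.78 ± 0.35 (adjusted p = 0.00231), for which the call was lost with the compared arrays alone (adjusted p = 0.0792). Nop2, an rRNA methyltransferase, gave 0.98 ± 0.28, and the call was lost in 9 of 24 alternative settings, 7 of them leaving out an array (adjusted p up to 0.336). Polr1e, a subunit of RNA polymerase I, gave 1.36 ± 0.40, and the call was lost in 11 of 24 alternative settings, 8 of them leaving out an array (adjusted p up to 0.196).

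Of 42 proteasome genes 33 rose and 5 fell with a median of 1.4, beside 17.0% and 21.2% of all genes tested. In uninjected embryos 36 rose and 3 fell with a median of 1.51. Psma6 of the core's outer ring read 508, 289.5 and 396 at 20 h and 3231, 4016 and 3240 at 44 h (3.11 ± 0.24), and Psmc1, an ATPase of the cap, 678, 506 and 922 and 3817, 3887 and 2862 (2.33 ± 0.20). Psmb5 rose by 3.75 ± 0.33 and Psmc5 by 3.02 ± 0.29. Another subunit went the other way. Psmb2 of the core's inner ring read 375, 216 and 253 at 20 h and 90.5, 26.8 and 24.3 at 44 h with the morpholino, a fall of 2.35 ± 0.29 (adjusted p = 1.14e-07), while it rose in uninjected embryos from 651, 419 and 652 to 2829, 2148 and 2160. Control-injected embryos at 44 h read 1604, 2378 and 1453, and all of them were above all Oct4 morpholino arrays. The difference was -4.39 ± 0.41 (adjusted p = 1.18e-07) and passed in all alternative settings. Psme4, an activator that replaces the cap, fell by 1.1 ± 0.18 with the morpholino and by 2.54 ± 0.18 without (1.44 ± 0.26, adjusted p = 0.00117), and the call was lost with the mean of all probe sets (adjusted p = 0.0897). Psmd9, an assembly chaperone, rose by 3.66 ± 0.60 on the probe set used, a difference of 3.27 ± 0.84, while its other probe sets gave differences of -0.16 and 0.13. For Psmd9 the call was lost in 5 of 24 alternative settings, among them leaving out, 1 at a time, Oct4 morpholino replicate 3 at 20 h, uninjected replicate 3 at 20 h and uninjected replicate 1 at 44 h (adjusted p up to 0.154).

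Translation factors rose in 26 of 45 cases and fell in 4, beside 17.0% and 21.2% of all genes tested. In uninjected embryos 29 rose and 0 fell. The elongation factors Eef2 and Eef1a1 rose by 1.47 ± 0.15 and 1.2 ± 0.13, the release factor Gspt1 by 2.37 ± 0.25 and the initiation subunit Eif3d by 2.98 ± 0.33. The 4 that fell were Eif2s3x, Eif4a1, Eif4e and Eif5a. Eif2s3x, the X-linked gamma subunit of eIF2, read 1199, 846 and 971 at 20 h and 351, 314 and 619 at 44 h, while it rose in uninjected embryos from 2035, 1442 and 1585 to 3329, 3331 and 2618, a difference of -2.12 ± 0.25 (adjusted p = 4.53e-06). At 20 h its morpholino arrays were already the lower. Eif4e, the protein that binds the mRNA cap, read 3507, 2678 and 3235 and 1957, 1352 and 1199 with the morpholino against 4850, 4065 and 4850 and 4811, 4832 and 4630, a difference of -1.13 ± 0.20 (adjusted p = 0.00102). Eef1b2 rose less with the morpholino than without, a difference of -1.21 ± 0.28 (adjusted p = 0.00831). Eif3c and Eif4ebp2 had positive differences that passed. For Eif4e the call was lost with the compared arrays alone (adjusted p = 0.0766), and for Eef1b2 the call was lost under quantile normalization and with the compared arrays alone (adjusted p up to 0.0572).

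Of 72 genes of oxidative phosphorylation 44 rose and 4 fell with the morpholino, with a median of 1.01, beside 17.0% and 21.2% of all genes. In uninjected embryos 52 rose and 3 fell, with a median of 1.5. The complex I subunit Ndufb5 rose from 148, 94.4 and 96 to 1320, 1594 and 873 (3.29 ± 0.31), the ATP synthase subunit Atp5a1 by 1.37 ± 0.16 and the complex III subunit Uqcrb by 2.12 ± 0.29. Sdhc, Ndufs4, Ndufa10 and Uqcr11 passed the test of the difference, all negative, beside 1.98% of all genes. Sdhc, a membrane anchor of succinate dehydrogenase, read 1046, 979 and 921 at 20 h and 85.5, 75.6 and 556 at 44 h with the morpholino and 220.5, 403 and 209 and 1616, 717 and 1605 in uninjected embryos, a difference of -4.66 ± 1.06 (adjusted p = 0.00779). Its morpholino arrays were all the higher at 20 h and all the lower at 44 h, and another probe set, of lower signal, gave -1.65. Ndufs4 and Ndufa10 are complex I subunits, and Ndufs4 read 114, 74.01 and 29.1 and 55.01, 19.8 and 43.2 against 174, 99.3 and 115 and 609, 530.0 and 775, a difference of -2.79 ± 0.73 (adjusted p = 0.0204). Ndufa10 gave -1.88 ± 0.46 (adjusted p = 0.0134). For Ndufs4 the call was lost in 4 of 24 alternative settings, among them leaving out, 1 at a time, Oct4 morpholino replicate 1 at 20 h, Oct4 morpholino replicate 2 at 44 h and uninjected replicate 3 at 44 h (adjusted p up to 0.0734), and for Ndufa10 the call was lost with the compared arrays alone and without Oct4 morpholino replicate 3 at 20 h (adjusted p up to 0.0547). Ndufab1, an acyl carrier protein, fell by 1.98 ± 0.19 on the probe set used, with changes from -1.29 to 1.0 on its other probe sets, and the call was lost with the mean of all probe sets (adjusted p = 0.4).

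Glycolysis differed in direction between members. With the morpholino 4 of 20 genes rose and 4 fell, beside 17.0% and 21.2% of all genes tested. In uninjected embryos 4 rose and 9 fell, and the medians were -0.18 with the morpholino and -0.77 without injection. Pfkfb3, which makes the activator of phosphofructokinase, rose from 93.5, 28.6 and 174 to 631, 619 and 900.3 (2.89 ± 0.54). Ldhb, a lactate dehydrogenase subunit, fell from 3828, 3141 and 4662 to 1092, 2329 and 1708 (-1.22 ± 0.26), and Pdk1, a kinase that inhibits pyruvate dehydrogenase, by 2.24 ± 0.40. Pgk1, phosphoglycerate kinase, was the one member with a difference that passed: it read 1100, 1129 and 1183 at 20 h and 1001, 1197 and 955 at 44 h with the morpholino, while uninjected embryos went from 1089, 822 and 815 to 458, 231 and 146, a difference of 1.66 ± 0.45 (adjusted p = 0.0248), for which the call was lost in 7 of 24 alternative settings, 4 of them leaving out an array (adjusted p up to 0.165). Of 18 amino acid transporters 3 rose and 5 fell with the morpholino, beside the same 17.0% and 21.2% over all genes. In uninjected embryos 4 rose and 5 fell, and none passed the test of the difference. Slc1a1, a glutamate and aspartate transporter, rose by 3.15 ± 0.26, and the arginine and lysine transporter gene Slc7a1, Slc1a4 and the glycine transporter gene Slc6a9 fell by 2.3 ± 0.56, 2.14 ± 0.54 and 1.15 ± 0.33. For Slc1a4 the call was lost with the mean of all probe sets (adjusted p = 0.0972).

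**Figure D3:**
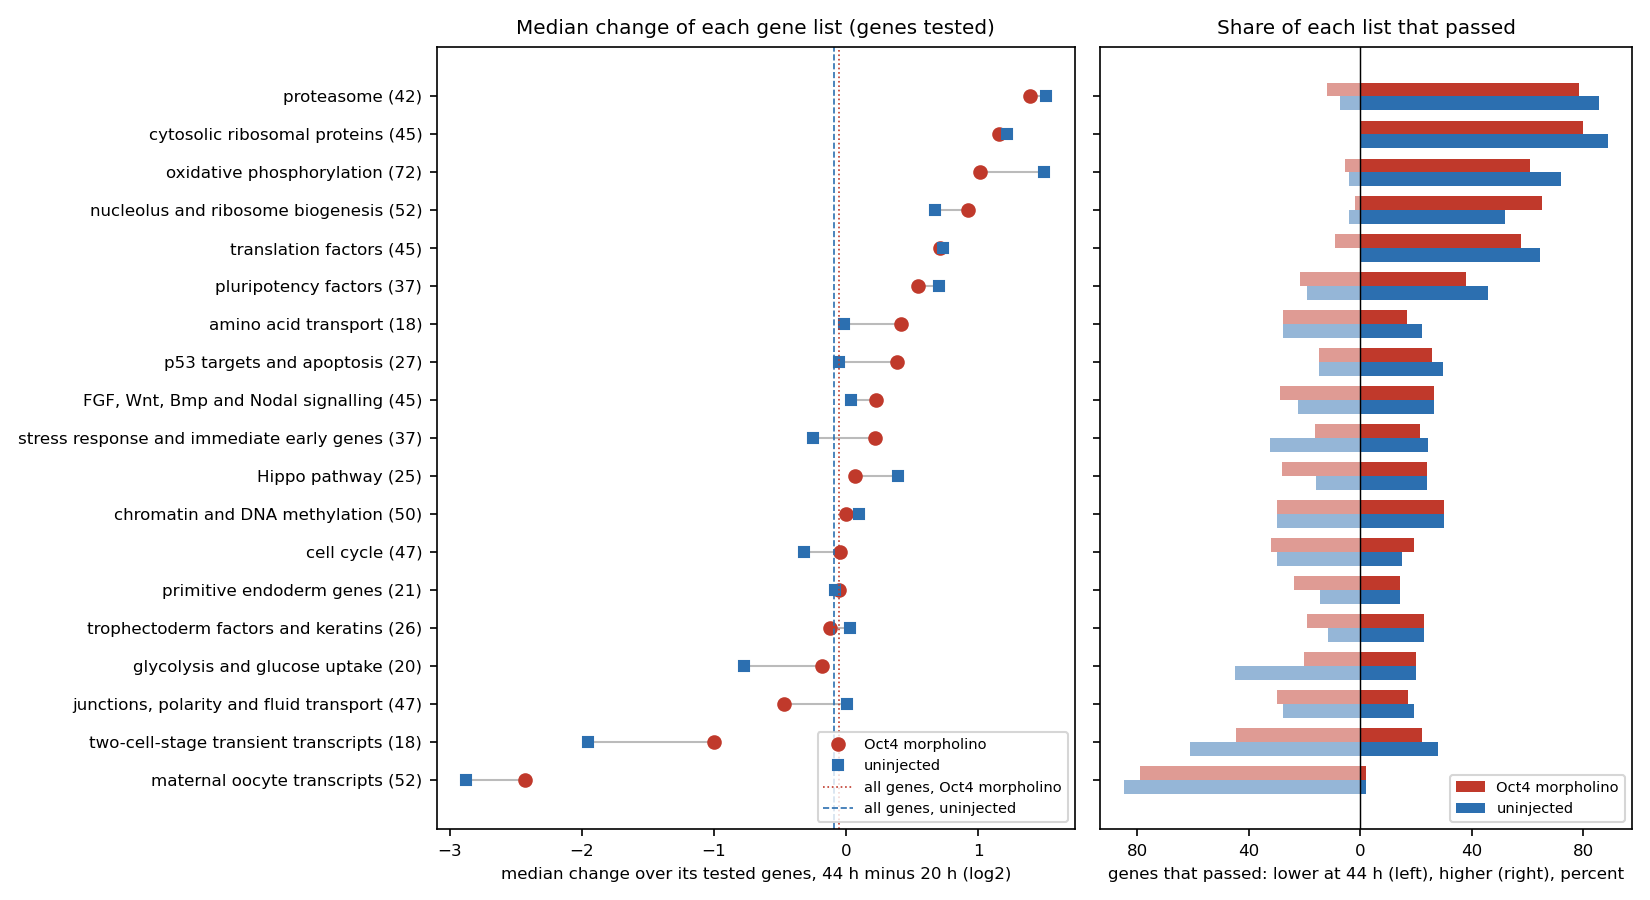
Left, median change from 20 h to 44 h over the tested genes of each list in Oct4 morpholino embryos (circles) and uninjected embryos (squares), as log2 of intensity + 16, with the medians of all genes as vertical lines. Right, percent of each list's tested genes that passed as lower (left of 0) or higher (right of 0); the proteasome, ribosomal protein and oxidative phosphorylation lists lie to the right and the maternal transcripts to the left in both groups.

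Of 37 tested pluripotency factors 14 rose and 8 fell with the Oct4 morpholino, against 17 and 7 in uninjected embryos, with medians of 0.55 and 0.70. Over all genes tested, 17.0% rose and 21.2% fell with the morpholino. Of the 14 that rose 12 also rose in uninjected embryos, and of the 8 that fell 5 also fell. Tdgf1, the Nodal co-receptor Cripto, rose from 42.9, 33.6 and 153 to 1162, 1688 and 1182 (4.08 ± 0.40), and Dppa5a, an RNA-binding protein of pluripotent cells, from 965, 855 and 1006 to 5095, 4360 and 4977 (2.33 ± 0.20). Sox2, the partner of Oct4 on DNA, fell from 415, 632 and 360.5 to 7.41, 61.1 and 12.2 (-3.67 ± 0.44) and in uninjected embryos from 157, 174 and 170.1 to 8.66, 14.2 and 10.6. Beside Nanog, the genes that rose included Klf2, Esrrb, Nr5a2, Zfp42, Fgf4, Tet1 and Tet2. The differences of Tdgf1, Dppa5a and Sox2 did not pass.

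The pluripotency factors Jarid2, Klf5, Pou5f1 and Stat3 passed the test of the difference, 3 of them negative, beside 1.98% negative and 3.48% positive over all genes. Jarid2, a cofactor of the Polycomb complex that methylates histone H3, read 1408, 1178 and 1146 at 20 h and 666, 412 and 515 at 44 h with the morpholino. In uninjected embryos it read 1033, 1228 and 1109 at 20 h and 3300, 3340 and 3061 at 44 h, and control-injected embryos read 2405, 2689 and 2327. Levels overlapped at 20 h, and at 44 h the morpholino arrays were far below both references, with a difference of -2.74 ± 0.28 (adjusted p = 3.06e-07) that passed in all alternative settings. Its other probe sets gave differences of -1.91 and -2.02. Klf5, a Krüppel-like factor of both early lineages, read 381, 208 and 191 at 20 h and 311, 515 and 383 at 44 h, while uninjected embryos rose from 208, 206 and 196 to 1209, 1444 and 1977, a difference of -2.17 ± 0.48 (adjusted p = 0.00581). For Klf5 the call was lost with the control-injected reference (adjusted p = 0.0783).

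Of 26 tested trophectoderm genes, 6 rose and 5 fell with the morpholino, against 6 and 3 in uninjected embryos, where 17.0% of all genes rose and 21.2% fell with the morpholino. Tead4, the DNA-binding partner of Yap that drives trophectoderm, rose from 97.7, 74.2 and 91.7 to 1175, 1671 and 1489 (3.81 ± 0.68), Tfap2c from 1634, 1816 and 2142 to 3953, 4250 and 3079 (1.0 ± 0.17), and Tfeb, needed for placental vessels, from 10.4, 7.12 and 16.1 to 157, 671 and 258 (3.56 ± 0.48). The differences of Tead4, Tfap2c, Tfeb and Hand1 did not pass. The 5 that fell were Ets2 (-3.09), Klf6 (-2.38), Tfap2a (-1.99), Dlx3 (-1.01) and Krt7 (-0.67). With the morpholino, Cdx2, Gata3, Krt8 and Krt18 summed to 344 to 984 at 20 h and 306 to 1116 at 44 h. Uninjected embryos gave 299 to 385 and 725 to 1692, and control-injected embryos 662 to 1303 at 44 h. Cdx2 was the one member with a difference that passed. It read 355, 20.8 and 20.02 at 20 h and 8.88, 313 and 29.7 at 44 h with the morpholino, a change of -0.13 ± 0.79 that did not pass, and in uninjected embryos 11.4, 14.7 and 10.9 at 20 h and 487, 921 and 358 at 44 h, a rise of 4.31 ± 0.79 (adjusted p = 4.68e-05). At 20 h all morpholino arrays were above all uninjected arrays, 1 of them far above. All 3 control-injected arrays at 44 h (281, 263 and 527) were above 2 of the 3 morpholino arrays, and the third morpholino array lay among them. The difference was -4.44 ± 1.11 (95% interval -6.72 to -2.17, adjusted p = 0.0155), and the call was lost in 4 of 24 alternative settings, among them leaving out, 1 at a time, Oct4 morpholino replicate 1 at 20 h and Oct4 morpholino replicate 1 at 44 h (adjusted p up to 0.116).

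The promoter of Cdx2 holds the octamer that POU factors bind. The octamer was searched as ATGCAAAT on either strand (ATTTGCAT on the other) in windows from 250 bases before to 50 bases after each transcript start, from RefSeq on GRCm38.p6. Of the tested genes 12657 had a window, and 205 of them (1.62%) held the octamer, against 1.97% of all genes in the table. It was found in 3 of 256 genes with a negative difference (1.17%; Btf3l4, Cdx2 and Ndufs4) and in 9 of 450 with a positive difference (2%). Among genes that changed over time with the morpholino it was found in 1.14% of those that rose and 1.64% of those that fell. The windows of the pair of listed genes among the 3, at chr5:147307200-147307499 and chr13:114388045-114388344 on the minus strand, follow with the octamer in capitals. A match is a description of the letters and not a bound site.
Cdx2: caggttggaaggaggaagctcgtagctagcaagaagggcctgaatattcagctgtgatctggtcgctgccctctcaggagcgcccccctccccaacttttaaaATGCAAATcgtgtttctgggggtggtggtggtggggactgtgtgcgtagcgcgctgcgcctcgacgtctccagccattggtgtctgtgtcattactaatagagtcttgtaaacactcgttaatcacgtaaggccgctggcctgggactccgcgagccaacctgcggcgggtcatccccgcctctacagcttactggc
Ndufs4: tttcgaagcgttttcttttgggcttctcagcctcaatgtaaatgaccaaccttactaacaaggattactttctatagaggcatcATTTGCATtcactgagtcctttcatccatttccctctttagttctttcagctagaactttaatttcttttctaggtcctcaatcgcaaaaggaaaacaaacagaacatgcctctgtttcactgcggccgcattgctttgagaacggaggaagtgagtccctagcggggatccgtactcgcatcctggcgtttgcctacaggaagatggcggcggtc

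Primitive endoderm genes rose in 3 of 21 cases and fell in 5, against 3 and 3 in uninjected embryos, beside the same 17.0% and 21.2% over all genes. Gata6, the first transcription factor of that lineage, rose from 83.9, 54.7 and 70.8 to 473, 582 and 420.2 (2.57 ± 0.48), against 52.9, 61.7 and 55.3 and 992, 1303 and 1160 without injection, a difference of -1.43 ± 0.68 that did not pass. Nid1, a basement membrane protein, and the transcriptional coactivator Cited1 rose by 3.9 ± 0.51 and 3.1 ± 0.49. A probe set of Nid1 with lower signal rose by 0.35, with a difference of -3.54, against -0.52 on the one used. Dab2, an endocytic adaptor, read 889, 1313 and 807 at 20 h and 168, 151 and 41.1 at 44 h with the morpholino, a fall of 3.05 ± 0.37. Uninjected embryos read 1098, 1266 and 878 and 944, 1006 and 1071, so their groups overlapped between the times, and the difference was -2.96 ± 0.53 (adjusted p = 0.00105). Control-injected embryos read 405, 564 and 693 at 44 h, above all morpholino arrays. In Sall4 morpholino embryos Dab2 went from 1613 ± 129 (SD) to 69.9 ± 47.6. Nid2, another basement membrane gene, gave a difference of 2.29 ± 0.64 (adjusted p = 0.0305), and the call was lost in 11 of 24 alternative settings, 8 of them leaving out an array (adjusted p up to 0.394). Of 4 markers of the lineage (Gata6, Gata4, Sox17 and Pdgfra), the summed level at 44 h was 1011 to 1224 with the Oct4 morpholino, 1750 to 2798 in uninjected and 1191 to 1810 in control-injected embryos.

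Of 47 tested genes of cell junctions, polarity and fluid transport 14 fell and 8 rose, beside 21.2% and 17.0% of all genes tested. In uninjected embryos 13 fell and 9 rose, and the medians were -0.47 with the morpholino and 0.00 without injection. In 5 the test of the difference passed as negative (Aqp3, Llgl1, Pard6b, Pard6a and Dsp) and in 1 as positive (Atp1b1), beside 1.98% and 3.48% of all genes. Aqp3, a channel for water and glycerol, read 338, 345 and 434 at 20 h and 186, 232 and 269 at 44 h with the morpholino and 341, 622 and 178 and 2346, 2322 and 1871 in uninjected embryos. Control-injected embryos at 44 h read 1796, 2174 and 1690, and all morpholino arrays at 44 h were far below all reference arrays. The difference was -3.3 ± 0.68 (adjusted p = 0.00344). Llgl1, the basolateral polarity protein, fell from 1969, 1710 and 2041 to 357, 424 and 286 (-2.38 ± 0.23), against 1458, 1340 and 1235 and 1098, 773 and 1255, a difference of -2.0 ± 0.33 (adjusted p = 0.000392). Pard6b, an apical polarity protein needed for the blastocyst cavity, fell from 726, 973 and 951 to 152, 187 and 86.6 (-2.56 ± 0.30), against 537, 800.0 and 745 and 339, 554 and 552, a difference of -2.03 ± 0.42 (adjusted p = 0.00344). All 3 differences passed in all alternative settings. Rdx, a linker of membrane and actin, and the cadherin partner Ctnnd1 fell in both groups, by 1.7 ± 0.17 and 1.74 ± 0.19 with the morpholino, and their differences did not pass. For Ctnnd1 the call was lost with the mean of all probe sets (adjusted p = 0.135).

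In the Hippo pathway, which passes cell polarity on to Yap, 6 of 25 genes rose and 7 fell with the morpholino, against 6 and 4. The shares over all genes with the morpholino were 17.0% and 21.2%. The effector Yap1 fell from 6443, 6254 and 6629 to 1784, 3383 and 2731 (-1.33 ± 0.16) and in uninjected embryos by 1.29 ± 0.16. Wwc2, an upstream scaffold, fell by 1.72 ± 0.18. Taok1, an upstream kinase, fell from 884, 1341 and 984 to 384, 213 and 334 (-1.75 ± 0.22) against 1569, 1455 and 1473 and 871, 1276 and 1053, a difference of -1.25 ± 0.31 (adjusted p = 0.0133). Its other probe sets gave differences from -2.2 to -0.09. Mob1a, the cofactor of the Lats kinases, fell from 1498, 1026 and 874 to 464, 247 and 731 against 1819, 1346 and 1950 and 1891, 1804 and 1710, a difference of -1.39 ± 0.36 (adjusted p = 0.0192). For Taok1 the call was lost with the compared arrays alone, with the control-injected reference and without Oct4 morpholino replicate 2 at 20 h (adjusted p up to 0.0998), and for Mob1a the call was lost in 4 of 24 alternative settings, among them leaving out, 1 at a time, Oct4 morpholino replicate 1 at 20 h, Oct4 morpholino replicate 2 at 44 h and uninjected replicate 2 at 20 h (adjusted p up to 0.158).

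Among 45 genes of FGF, Wnt, Bmp and Nodal signalling 12 rose and 13 fell, against 12 and 10 in uninjected embryos. The shares over all genes with the morpholino were 17.0% and 21.2%. Of ligands and receptors, Tdgf1 rose, as given above, and Bmpr1a, a Bmp receptor, rose from 346, 333 and 244 to 1376, 1084 and 1063 (1.88 ± 0.28). Fzd7, a Wnt receptor, read 2145, 1480 and 1112 at 20 h and 891, 1136 and 901 at 44 h with the morpholino, while uninjected embryos went from 1367, 1257 and 1344 to 15.7, 62.3 and 72.6 and control-injected embryos at 44 h read 157, 73.4 and 54. The morpholino arrays at 44 h were all above all reference arrays, and the difference was 3.83 ± 0.70 (adjusted p = 0.00121). Fgf10 read 50.1, 29.5 and 46.01 and 19.9, 21.4 and 13.8 with the morpholino, all under the table's median, and gave a difference of -1.58 ± 0.35 (adjusted p = 0.00601), for which the call was lost with pseudocount 64 and with the compared arrays alone (adjusted p up to 0.13). Of the transducers, Lef1, which carries Wnt signals to DNA, fell from 1244, 1638 and 1550 to 104, 42.04 and 96.05 (-4.01 ± 0.42), and Smad3, of the Nodal branch, from 2227, 2272 and 2325 to 85.4, 57.5 and 588 (-3.79 ± 0.55). Spry4, a feedback inhibitor of FGF signalling, fell from 3286, 3624 and 4035 to 820.0, 598 and 309.9 with the morpholino and from 2993, 2958 and 3043 to 37.6, 142 and 31.03 without, a difference of 2.63 ± 0.69 (adjusted p = 0.0208), and the call was lost in 6 of 24 alternative settings, among them leaving out, 1 at a time, Oct4 morpholino replicate 1 at 44 h and uninjected replicates 1 and 3 at 44 h (adjusted p up to 0.171). The other probe sets of Spry4 gave differences of 1.23, 0.29 and 0.28.

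Of 37 tested stress response and immediate early genes 8 rose and 6 fell with the morpholino, against 9 and 12 in uninjected embryos, with medians of 0.22 and -0.25, and 6 passed the test of the difference, all positive (Hspa1a, Hsph1, Hspa5, Gadd45b, Egr1 and Ier5). Over all genes 17.0% rose and 21.2% fell with the morpholino, and 3.48% had a positive difference that passed. Egr1, a transcription factor induced by growth factor signals, read 1296, 973 and 1335 at 20 h and 647, 902 and 625 at 44 h with the morpholino, a change of -0.72 ± 0.46 that did not pass. Uninjected embryos went from 1083, 1142 and 595 to 30.01, 11.02 and 9.31, a fall of 4.86 ± 0.46, and control-injected embryos read 119, 5.81 and 24.9 at 44 h. The difference was 4.14 ± 0.64 (adjusted p = 0.000202). Ier5, another immediate early gene, read 953, 606 and 920.1 at 20 h and 468, 1457 and 975 at 44 h, against 456, 581 and 590.0 and 5.97, 2.66 and 5.46, with 17.3, 78.9 and 18.3 in control-injected embryos at 44 h. For Egr1 and Ier5 all morpholino arrays at 44 h lay above all reference arrays of that time, and the Ier5 difference was 4.86 ± 0.69 (adjusted p = 6.46e-05). Both passed in all alternative settings. Hsph1, a co-chaperone of Hsp70, rose from 3051, 2462 and 2547 to 4935, 6203 and 5186 (1.01 ± 0.17) and read 3842, 3106 and 3786 and 3387, 3445 and 2279 in uninjected embryos, a difference of 1.27 ± 0.24 (adjusted p = 0.00166), for which the call was lost with the compared arrays alone (adjusted p = 0.0554). The co-chaperone gene Dnaja1 rose by 0.98 ± 0.13 and Ddit4, an inhibitor of mTOR signalling, by 0.98 ± 0.14, while Atf4, the effector of the integrated stress response, fell by 0.86 ± 0.14, with differences that did not pass.

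**Figure D4:**
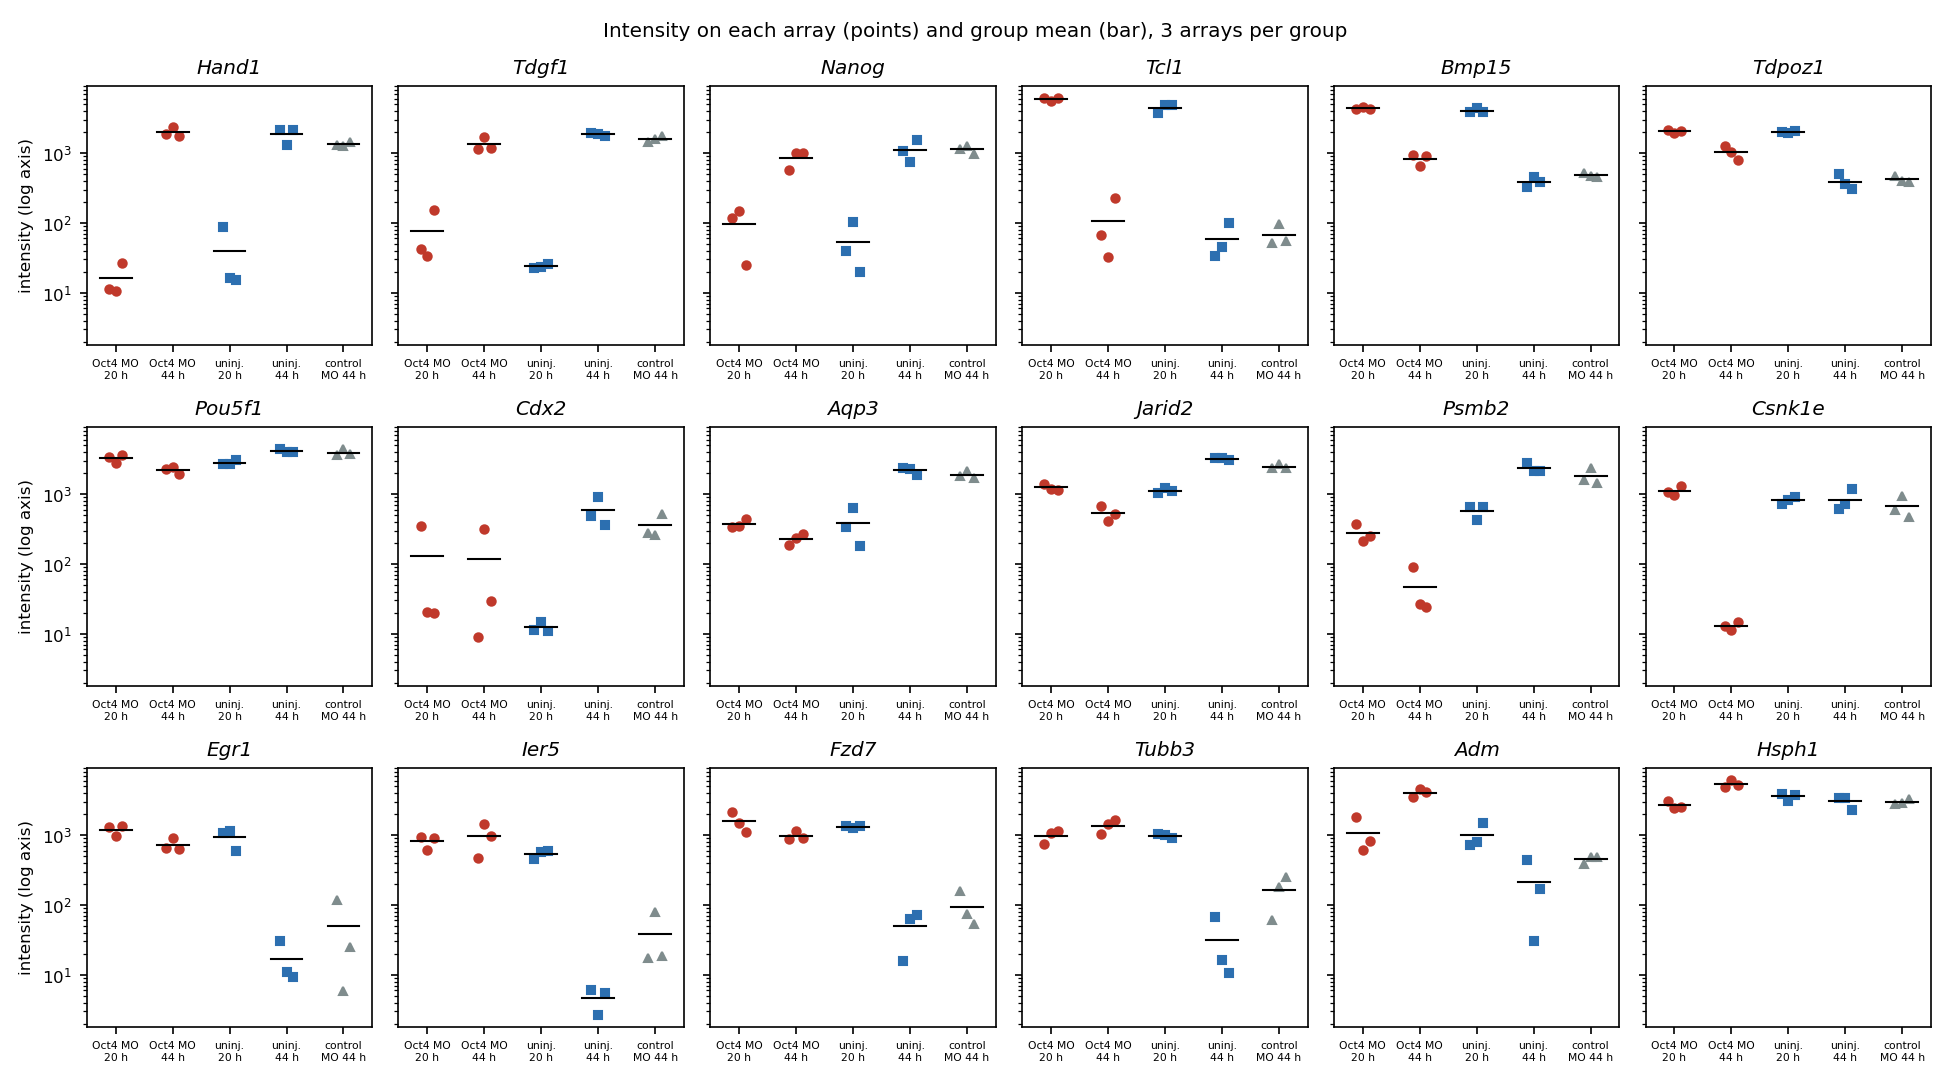
Deposited intensity on each array (points, log axis) and the mean of each group (bars) for 18 genes in Oct4 morpholino, uninjected and control-injected embryos, 3 arrays per group. The first row changes over time in both groups, and in it Bmp15 and Tdpoz1 also had a positive difference that passed. The second row shows Pou5f1 and genes with a negative difference. The third shows genes with a positive difference, such as Egr1 at 625 to 902 with the morpholino and 9.31 to 30.01 in uninjected embryos at 44 h.

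Of 27 targets of p53 and apoptosis genes 7 rose and 4 fell, against 8 and 4, beside 17.0% and 21.2% of all genes with the morpholino. Aen, a nuclease induced by p53, rose from 663, 359.6 and 433 to 1867, 2681 and 2661 (2.3 ± 0.30), the survival gene Mcl1 by 1.7 ± 0.29 and the proapoptotic gene Bad by 2.95 ± 0.62, and Birc5, the mitotic protein survivin, fell by 0.70 ± 0.11. Trp53inp1, a p53 target, fell by 0.54 ± 0.18 with the morpholino and by 1.67 ± 0.18 without, a difference of 1.13 ± 0.25 (adjusted p = 0.00577). Bok, a proapoptotic Bcl2 relative, read 112, 38.1 and 30.8 at 44 h with the morpholino and 202, 338 and 364 without, a difference of -2.25 ± 0.53 (adjusted p = 0.0103), and the call was lost with the compared arrays alone (adjusted p = 0.055).

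Of 47 cell cycle genes 9 rose and 15 fell, against 7 and 14, beside 17.0% and 21.2% of all genes with the morpholino. E2f1 fell from 2177, 1887 and 2070 to 576, 368 and 935 (-1.78 ± 0.22), the checkpoint kinase gene Chek1 by 2.09 ± 0.26, and Cdk4, the kinase partner of D-type cyclins, rose by 2.64 ± 0.34. Rb1, Orc1 and Mcm6 passed the test of the difference, all positive, beside 3.48% of all genes. Rb1, the retinoblastoma protein gene, read 443, 233 and 271 at 44 h against 80.5, 22.1 and 8.07, a difference of 3.08 ± 0.82 (adjusted p = 0.0233). The replication genes Orc1 and Mcm6 gave 1.68 ± 0.46 and 0.81 ± 0.19. For Rb1 the call was lost in 7 of 24 alternative settings, 5 of them leaving out an array (adjusted p up to 0.445). For Mcm6 the call was lost with the mean of all probe sets and with the compared arrays alone (adjusted p up to 0.33). For Orc1 the call was lost in 8 of 24 alternative settings, 6 of them leaving out an array (adjusted p up to 0.776), and another of its probe sets gave a difference of -1.02.

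Chromatin genes were divided, with 15 of 50 higher and 15 lower in each group, beside 17.0% and 21.2% of all genes with the morpholino. The same genes were higher in both groups in 11 cases and lower in both in 10. Smarce1, a subunit of the SWI/SNF remodeller, rose from 2278, 1590 and 1660 to 6068, 6176 and 5907 (1.73 ± 0.17), the arginine methyltransferase gene Prmt1 by 2.19 ± 0.26 and the deacetylase gene Hdac1 by 1.03 ± 0.14, and Tet3, the dioxygenase that acts on the paternal genome, fell from 1313, 1002 and 1235 to 140.0, 127 and 188 (-2.85 ± 0.31). For Smarce1 the call was lost with the mean of all probe sets (adjusted p = 0.0524). The difference passed as positive in 5 (Suv39h2, Dnmt1, Prmt6, Kdm4a and Chd1) and as negative in 2 (Hdac3 and Smarca4). Over all genes the shares were 3.48% and 1.98%. Hdac3, a deacetylase, read 61.02, 54.6 and 74.96 at 20 h and 2.93, 36.9 and 11.8 at 44 h with the morpholino and 18.5, 4.98 and 10.1 and 127, 164 and 227 without, a difference of -4.17 ± 0.89 (adjusted p = 0.00428). Smarca4, the ATPase of SWI/SNF, read 670.5, 657 and 680.5 at 44 h against 2472, 2047 and 1985, a difference of -1.34 ± 0.35 (adjusted p = 0.0197), and the call was lost with the compared arrays alone and without uninjected replicate 2 at 20 h (adjusted p up to 0.0973). Suv39h2, which methylates histone H3 in heterochromatin, gave 1.74 ± 0.37 (adjusted p = 0.00419), and the call was lost with the mean of all probe sets and with the control-injected reference (adjusted p up to 0.609). Its other probe sets gave 0.84 and -0.94.

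Over all genes tested the median difference was 0.06. The 863 genes that passed include 585 genes that changed over time in uninjected embryos, and in 524 of these (89.6%) the change with the morpholino was smaller or of the other sign. The 3 tests use the same arrays, so this share describes the called genes and supports nothing further. In 40 genes a rise in uninjected embryos stood against a fall with the morpholino, Pou5f1, Jarid2, Psmb2, Sdhc and Eif2s3x among them, and in 31 a fall stood against a rise, among them Adm and Mcm6. A further 125 genes rose, and 195 fell, in uninjected embryos but did not pass with the morpholino. The gap between the groups was the larger at 44 h for 424 of the 550 and 293 of the 313. With control-injected embryos as the reference at 44 h the count was 569, of which 443 were among the 863 with the same sign. Of the 550 positive differences 260 passed with that reference, and of the 313 negative ones 183. At 44 h, control-injected minus uninjected embryos had the sign of the difference in 440 of the 550 (80%) and 248 of the 313 (79.2%). Over all genes tested, 50.4% of these signs were positive and 49.6% negative. Both comparisons use the uninjected arrays at 44 h, and the part of injection was not tested. The Oct4 experiment has no control-injected embryos at 20 h, so the Oct4 morpholino and the injection cannot be told apart in the difference. The count fell to 530 without uninjected replicate 1 at 20 h, to 551 without uninjected replicate 3 at 20 h and to 567 without Oct4 morpholino replicate 3 at 20 h.

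Of the 10 largest positive differences, Egr1 and Ier5 are given above. Tubb3, a beta-tubulin known from neurons, read 735, 1085 and 1135 at 20 h and 1029, 1422 and 1640 at 44 h with the morpholino and 1039, 998 and 921 and 67.4, 16.1 and 10.7 in uninjected embryos, a difference of 5.05 ± 0.96 (adjusted p = 0.00166). Adm, the peptide hormone adrenomedullin, rose from 1794, 619 and 822 to 3525, 4528 and 4149 and fell in uninjected embryos from 722, 801 and 1477 to 436, 30.7 and 168, with 383, 489.9 and 494 in control-injected embryos, a difference of 4.66 ± 0.83 (adjusted p = 0.00105). Mmp19, a matrix metalloproteinase, read 1086, 532 and 411 and 429, 851 and 391 against 1592, 1416 and 1492 and 38.4, 60.3 and 22.5, a difference of 4.56 ± 0.55 (adjusted p = 4.53e-06). In these 3 genes the groups differed at 44 h without overlap. The gene 5730409E04Rik gave 4.23 ± 0.87 (adjusted p = 0.00323). Another probe set of Adm, of far lower signal, gave 0.86. The differences of Adm, Mmp19 and 5730409E04Rik passed in all alternative settings, and for Tubb3 the call was lost with the control-injected reference (adjusted p = 0.064).

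The other 4 of the 10 had wider errors. Rgcc, a regulator of the cell cycle, read 683, 89.2 and 1.19 at 44 h with the morpholino, 1 array far above the others, and gave 4.91 ± 1.45 (adjusted p = 0.0406). Another probe set of Rgcc, of lower signal, changed by -0.55 with the morpholino, with a difference of -0.45. Tacr3, the neurokinin B receptor, read 1236, 111 and 1160 at 44 h and gave 4.18 ± 1.22 (adjusted p = 0.0376). Ltb, the cytokine lymphotoxin beta, rose from 3.8, 41.1 and 2.04 to 347, 1102 and 564 and gave 4.7 ± 1.32 (adjusted p = 0.0313). The probe set annotated as the small nucleolar RNA Snord89 rose from 4.88, 2.34 and 7.98 to 499, 519 and 343 and gave 4.84 ± 1.31 (adjusted p = 0.0258). For Rgcc the call was lost in 13 of 24 alternative settings, 10 of them leaving out an array (adjusted p up to 0.145); for Tacr3 the call was lost in 13 of 24 alternative settings, 10 of them leaving out an array (adjusted p up to 0.0997); for Ltb the call was lost in 10 of 24 alternative settings, 8 of them leaving out an array (adjusted p up to 0.118); for Snord89 the call was lost in 5 of 24 alternative settings, 4 of them leaving out an array (adjusted p up to 0.254).

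Of the 10 largest negative differences, Cdx2, Psmb2 and Sdhc are given above. Hadh, an enzyme of fatty acid oxidation, read 279, 278 and 68.2 at 20 h and 54.1, 265 and 247 at 44 h with the morpholino and 10.8, 34.7 and 11.97 and 1048, 1080 and 783 in uninjected embryos, a difference of -5.02 ± 0.96 (adjusted p = 0.00175), with -2.99 and -1.96 on its other probe sets. Slc25a4, the ADP/ATP carrier of the inner membrane, fell from 884, 512 and 606 to 30.5, 94.9 and 30.8, against 404, 544 and 463 and 909.6, 929 and 704, a difference of -4.25 ± 0.61 (adjusted p = 7.22e-05). Pgam5, a mitochondrial phosphatase, fell from 172, 192 and 237 to 21.6, 18.8 and 25.5 and rose in uninjected embryos to 258, 171 and 327, a difference of -4.7 ± 0.83 (adjusted p = 0.000968). Hint2, a mitochondrial nucleotide hydrolase, fell from 81.4, 108 and 286 to 60.2, 4.2 and 7.85 and rose in uninjected embryos from 23.3, 34.7 and 3.67 to 191, 148 and 578, a difference of -5.21 ± 0.86 (adjusted p = 0.000383). Hadh, Pgam5 and Hint2 had higher morpholino than uninjected arrays at 20 h, and lower ones at 44 h.

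Csnk1e, a casein kinase of the circadian clock and Wnt signalling, read 1082, 965 and 1317 at 20 h and 12.8, 11.5 and 14.97 at 44 h with the morpholino and 729, 831 and 909 and 609, 717 and 1185 in uninjected embryos, a difference of -5.25 ± 0.77 (adjusted p = 9.59e-05). Its other probe sets disagree: they changed by 1.21 and 1.89 with the morpholino, with differences of -0.99 and -0.43. Dph6, an enzyme of diphthamide synthesis, fell from 1009, 1208 and 1578 to 257, 15.5 and 17.8, against 668, 856 and 309.8 and 1189, 672 and 441 (-4.57 ± 0.85, adjusted p = 0.00137). Ackr4, a scavenger receptor for chemokines, fell from 285, 413 and 388 to 79.5, 132 and 14.03 and rose in uninjected embryos from 284, 269.6 and 248 to 1031, 1243 and 997 (-4.27 ± 0.62, adjusted p = 7.92e-05). The differences of these 7 genes, from Hadh to Ackr4, passed in all alternative settings.

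Changes over time with the Oct4 morpholino differed from those with the Sall4 morpholino, each taken relative to uninjected embryos of its own experiment, in 92 genes (0.583%), 70 positive and 22 negative, but only 6 passed (4 positive, 2 negative) when the compared arrays were fitted alone. Both comparisons use the same uninjected arrays at 44 h, which cancel in this test. Hells, a remodeller needed for DNA methylation, read 1080, 996 and 800.2 at 20 h and 20.1, 146 and 92.2 at 44 h with the Oct4 morpholino. It was 1398 ± 112 (SD) and 1222 ± 113 with the Sall4 morpholino, and 1298 ± 158 in uninjected embryos at 44 h. The difference from Sall4 was -3.5 ± 0.61 (adjusted p = 0.00372). On the probe set used, Hells differed from uninjected embryos by -3.59 ± 0.50, and its other probe sets, of lower signal, gave -0.09 and -1.13. Psmb2 rose with the Sall4 morpholino, from 503 ± 56.7 to 1497 ± 353, and its difference was -3.53 ± 0.50 (adjusted p = 0.00031). The largest positive values were those of Gripap1 (5.33 ± 1.04, adjusted p = 0.0115), Rexo5 (4.9 ± 1.07, adjusted p = 0.0265) and Rlbp1 (4.89 ± 0.88, adjusted p = 0.00525). Gripap1, a partner of glutamate receptor scaffolds, read 251, 76.4 and 61.2 at 20 h and 799, 1005 and 409.5 at 44 h with the Oct4 morpholino and 561 ± 46.2 and 265 ± 289 with the Sall4 morpholino. Rlbp1, a retinoid carrier, rose to 1429, 349.6 and 224 with the Oct4 morpholino, 1 array far above the others. Trh, the gene of thyrotropin-releasing hormone, gave -4.09 ± 0.96 (adjusted p = 0.0408), and its uninjected embryos of the Sall4 experiment at 20 h read 667 ± 360 (SD). None of the 6 passed in every alternative setting: the call was lost in 1 of 29 for Gripap1, Rlbp1 and Psmb2, in 2 for Hells, in 9 for Rexo5 and in 15 for Trh. Neither Pou5f1 (-0.12 ± 0.32), Sall4 (-0.43 ± 0.33) nor Nanog (-0.27 ± 0.92) passed. The count moved from 28 to 146 when single arrays were left out, with 28 without uninjected replicate 1 and 52 without uninjected replicate 3 of the Oct4 experiment at 20 h, 49 and 60 without Oct4 morpholino replicates 2 and 3 at 20 h, 51 without Oct4 morpholino replicate 2 at 44 h, 49 without Sall4 morpholino replicate 2 at 20 h and 146 without uninjected replicate 2 of the Sall4 experiment. The median difference from Sall4 over all genes was 0.10, and -0.01 with median centring. The split was 31 positive and 23 negative with quantile normalization, 37 and 23 with median centring and 78 and 62 when arrays were scaled to their trimmed means.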

How the data were processed

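Probe set intensities on a linear scale were deposited by the authors, 1 value for each of 45101 probe sets on 42 arrays. Per the labels' protocols, RNA was amplified with a NuGEN WT-Ovation kit and labelled with biotin; the sources used here do not give how probe values were summarised or whether arrays were normalized together. Sample titles call replicates biological, and the p-values reflect only how these samples vary. Probe sets with 1 gene symbol (34945; 932 had several and 9160 none) were used, and per gene the one with the highest mean intensity over all 42 arrays.

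Values were taken as log2(intensity + 16), which understates changes of low genes. A gene was tested if the mean of at least 1 group exceeded the table's median (71.15), giving 15785 of 18193 genes. limma 3.58.1 in R 4.3.3 fitted 1 mean per group to all 42 arrays (28 residual degrees of freedom), with Benjamini-Hochberg adjustment and a threshold of 0.05; 3 arrays per group limit the precision. The scripts were tested on simulated data. Named genes are Pou5f1, Sall4 and Nanog, the 12 largest rises and falls with non-overlapping arrays, the 10 largest differences each way, 3 each way against Sall4, and up to 4 members and 3 differences of smallest adjusted p per list; genes named beyond these were chosen after their values were seen. The members and lists were chosen with earlier results of these data known. Alternatives were the pseudocount, normalization, filter, probe set rule, arrays fitted, array weights, replicate block, control-injected reference and leaving out each array. Promoters are from RefSeq (GRCm38.p6).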

Additional observations from a re-analysis of the deposited data

Results flagged for a closer look

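The genes below, those named by rule, drew attention because a test of the difference between groups passed (limma, adjusted over all genes tested); values are log2 differences. Genes that passed but were named outside the rule, as further members of a list, are not included. The change over time was higher with the Oct4 morpholino than in uninjected embryos for Tubb3 (5.05), Rgcc (4.91), Ier5 (4.86), Snord89 (4.84), Ltb (4.70), Adm (4.66), Mmp19 (4.56), 5730409E04Rik (4.23), Tacr3 (4.18), Egr1 (4.14), Fzd7 (3.83) and Gtf3c4 (3.67). Positive differences also passed for Rlbp1 (3.63), Psmd9 (3.27), Rexo5 (3.25), Gripap1 (3.15), Rb1 (3.08), Spry4 (2.63), Spz1 (2.56), Rfpl4b (2.41), Nid2 (2.29), Bcl2l10 (2.21), Cndp2 (2.04) and Ddx10 (1.78). So did those of Suv39h2 (1.74), Orc1 (1.68), Pgk1 (1.66), Psme4 (1.44), Polr1e (1.36), Tdpoz1 (1.34), Hsph1 (1.27), Trp53inp1 (1.13), Nop2 (0.98), Bmp15 (0.95) and Mcm6 (0.81).

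It was lower with the Oct4 morpholino for Csnk1e (-5.25), Hint2 (-5.21), Hadh (-5.02), Pgam5 (-4.70), Sdhc (-4.66), Dph6 (-4.57), Cdx2 (-4.44), Psmb2 (-4.39), Ackr4 (-4.27), Slc25a4 (-4.25) and Hdac3 (-4.17). Negative differences also passed for Hells (-3.59), Aqp3 (-3.30), Dab2 (-2.96), Pofut2 (-2.81), Ndufs4 (-2.79), Jarid2 (-2.74), Bok (-2.25), Klf5 (-2.17), Eif2s3x (-2.12), Pard6b (-2.03) and Llgl1 (-2.00). They passed too for Ndufa10 (-1.88), Rpl7a (-1.88), Fgf10 (-1.58), Mob1a (-1.39), Smarca4 (-1.34), Taok1 (-1.25), Eef1b2 (-1.21), Pou5f1 (-1.14), Eif4e (-1.13) and Rpl8 (-0.93). Against the Sall4 morpholino, the change differed for Psmb2 (-3.53), Gripap1 (5.33), Rexo5 (4.90), Rlbp1 (4.89), Trh (-4.09) and Hells (-3.50).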

How the results depend on the processing

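The counts of genes that changed over time kept within 1.5 times under every alternative run, from 4750 to 6620 with the Oct4 morpholino and from 5304 to 7385 in uninjected embryos, and no called value of a named gene changed sign. The median change of all genes did: with the morpholino it went from -0.05 to 0.03 with median centring and 0.01 with trimmed-mean scaling, and in uninjected embryos from -0.09 to 0.02 with median centring. The count of differences between them (863) was 1211 with array weights, 1131 with trimmed-mean scaling, 989 with a filter on the arrays' own medians, 942 with a pseudocount of 1, 529 with the compared arrays alone, 569 with control-injected embryos as the reference, and 530 to 847 leaving out each array. The count against the Sall4 morpholino (92) was 54 under quantile normalization, 60 under median centring, 140 with scaling to a trimmed mean, 6 with the compared arrays alone, and 28 to 146 leaving out each array. The share of positive calls against Sall4 moved from 76.1% to 57.4%, 61.7% and 55.7% under those 3 scalings. Of the named genes that passed, 93 of 103 changes over time, 27 of 67 differences from uninjected embryos and 0 of 6 differences from Sall4 passed in every setting. Samples with the same replicate number deviated together little or not at all in the pairs of groups compared (correlations -0.02 to 0.09), and they were not treated as pairs. Whether a number marks a shared origin cannot be told from this. With the replicate block the counts were 6036, 6204, 864 and 91. Where a call was lost, the cause was not tested. The number of arrays, 3 per group, limits the precision, and genes near background have wide errors.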
